A study of Mus musculus with 2 samples.

Results

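The mir-23, mir-27 and mir-24 genes lie in paralog clusters on mouse chromosomes 8 and 13, each with 1 gene of each family. The 6 genes were chosen by name: Mir23a, Mir27a and Mir24-2 on chromosome 8, and Mir23b, Mir27b and Mir24-1 on chromosome 13. By gene identifier 5 of the 6 were found among the 1973 miRNA genes of the count tables, and all 5 had 10 or more reads in both libraries. Mir24-1 was not analysed here as a gene. The series holds 2 libraries of small RNA (inserts below 30 nt) from midbrain of B6NCrl mouse embryos at embryonic day 16.5. Both libraries belong to 1 group of healthy embryos with no treatment in the labels, and each came from midbrains pooled over embryos of both sexes. The pool of replicate 2 held 37 embryos. No conditions were contrasted, so the questions were how much each gene gave, how the clusters compared, and how far the libraries differed.

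A miRNA gene is transcribed as a hairpin, from which a mature strand is cut out of the 5′ arm or the 3′ arm. The mature strand guides repression of mRNAs that match its seed, bases 2 to 8. The clusters carry the same families in the same order, and in each a single primary transcript holds all hairpins. Both clusters are known from endothelial cells, where mir-23 and mir-27 act in vessel growth, and mir-23 is also known from astrocytes. Mir-23 represses glutaminase, mir-27 represses the adipocyte regulator Pparg, and mir-24 represses genes of the cell cycle.

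The mature sequences show which members a read can tell apart. They are from RefSeq, build GRCm38.p6, 5′ to 3′, with the seed in capitals. All 6 genes had a hairpin there, and 11 mature entries matched. miR-23b-3p is named only.
miR-23a-3p: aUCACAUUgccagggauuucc
miR-27a-3p: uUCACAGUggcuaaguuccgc
miR-27b-3p: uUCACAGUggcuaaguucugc
miR-24-3p: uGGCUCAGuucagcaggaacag
miR-23a-5p: gGGGUUCCuggggaugggauuu
miR-23b-5p: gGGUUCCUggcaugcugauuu
miR-27a-5p: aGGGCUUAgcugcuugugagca
miR-27b-5p: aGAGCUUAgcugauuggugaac
miR-24-2-5p: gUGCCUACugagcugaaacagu
miR-24-1-5p: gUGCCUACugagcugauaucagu
Counting positions from 1 at the 5′ end, miR-27b-3p differed from miR-27a-3p by 1 substitution, C19U, outside the seed. The seeds of miR-23a-3p and miR-27a-3p differed by 1 base, U7G. The 5′ arms were less alike. miR-27a-5p and miR-27b-5p differed at 8 of 22 positions, G3A among them, so their seeds were not the same. The seed of miR-23b-5p was bases 3 to 9 of miR-23a-5p. The seed of miR-27a-3p and miR-27b-3p was in no other of the 1738 mature entries. Bases 1 to 7 of miR-128-3p, a neuronal miRNA, spell the same letters.

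The hairpins hold longer runs that a short read cannot place. They are shown with the longest run shared between paralogs in capitals.
Mir23a: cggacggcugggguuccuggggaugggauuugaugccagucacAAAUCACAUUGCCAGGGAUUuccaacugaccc
Mir23b: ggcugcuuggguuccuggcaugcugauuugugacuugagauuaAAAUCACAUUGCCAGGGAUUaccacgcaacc
Mir27a: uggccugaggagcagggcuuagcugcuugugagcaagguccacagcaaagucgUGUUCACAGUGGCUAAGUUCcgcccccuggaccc
Mir27b: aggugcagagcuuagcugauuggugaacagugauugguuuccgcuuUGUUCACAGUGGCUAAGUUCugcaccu
Mir24-2: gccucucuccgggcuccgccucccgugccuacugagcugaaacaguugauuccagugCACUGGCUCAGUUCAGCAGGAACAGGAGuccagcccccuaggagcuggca
Mir24-1: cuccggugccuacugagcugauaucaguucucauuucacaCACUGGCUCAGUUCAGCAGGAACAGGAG
The run was 20 bases for the mir-23 hairpins, 20 for the mir-27 hairpins and 28 for the mir-24 hairpins. miR-24-3p, 22 bases long, lies whole inside the mir-24 run and was found in 2 of the 1005 hairpins of the RefSeq table. Each of the other 9 mature sequences shown was found in 1 hairpin. A full-length read of miR-24-3p therefore matches both mir-24 genes equally. By contrast, a full-length read of miR-27a-3p or miR-27b-3p matches 1 hairpin exactly and the other with 1 mismatch. Likewise, a full-length read of miR-23a-3p matches Mir23a exactly and Mir23b with 1 mismatch, near the 3′ end of the read. For such reads the split between Mir23a and Mir23b rests on that 1 base. Each table lists reads that mapped to several places apart from the genes, at 4816290 in replicate 1 and 4391928 in replicate 2. How many of these were miR-24-3p was not tested, since they are not listed by gene. Counts of such near-identical copies are uncertain, most of all that of Mir24-2, with the longest shared run. Reads listed apart are not in the count of a gene. Full-length reads of miR-24-3p, which match 2 hairpins, would be listed apart and so be left out of the count of Mir24-2. That count is therefore not a level of miR-24-3p. The tables give 1 count per hairpin, so the 5′ and 3′ arms could not be counted apart.

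Both clusters are compact. Positions are those of GENCODE M21 on mm10. Mir23a (ENSMUSG00000065611.1, chr8:84208518-84208592), Mir27a (ENSMUSG00000065444.1, chr8:84208672-84208758) and Mir24-2 (ENSMUSG00000065541.1, chr8:84208815-84208921) are on the plus strand within 404 bases. Mir23a and Mir27a overlap no longer gene, and the last 2 bases of Mir24-2 overlap an exon of the long noncoding RNA Gm26532. Mir23b (ENSMUSG00000065599.1, chr13:63300484-63300557), Mir27b (ENSMUSG00000065475.1, chr13:63300712-63300784) and Mir24-1 (chr13:63301208-63301275) are on the plus strand in a span of 792 bases. All of them lie inside the protein-coding gene 2010111I01Rik. Mir23b lies in its intron, and Mir27b and Mir24-1 overlap annotated exons of it. On the opposite strand, the 3 hairpins lie in an intron of Fancc, a gene of DNA crosslink repair. The gaps between neighbouring hairpins were 79 and 56 bases on chromosome 8, and 154 and 423 bases on chromosome 13. Mir23b and Mir27b carry an older version of the identifier in the tables than in M21, and the position of that version is not given in the sources used here.

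**Figure D1:**
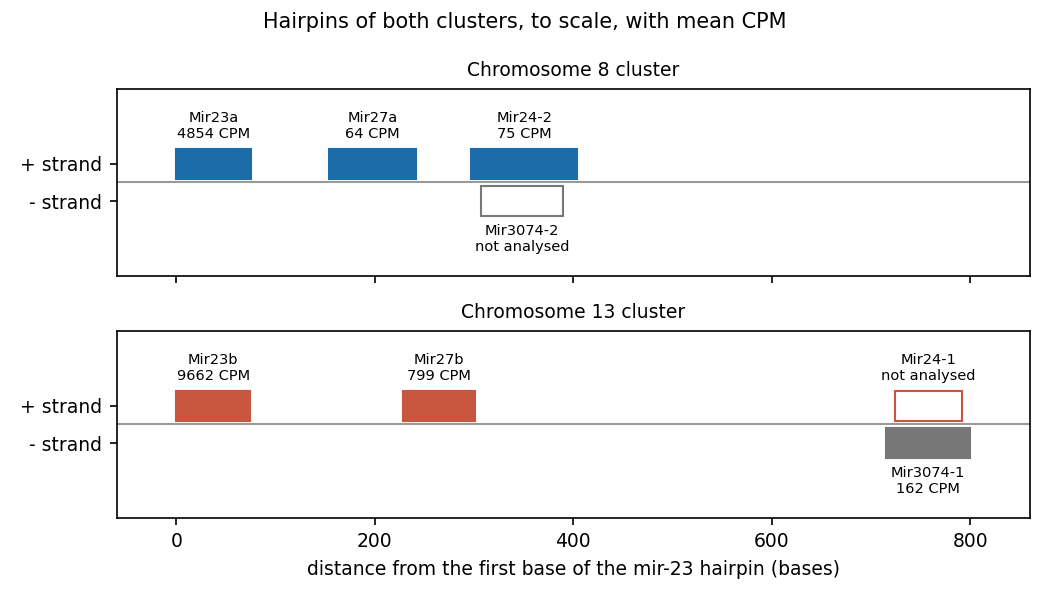
Hairpins of both clusters drawn to scale, with distance in bases from the first base of the mir-23 hairpin on the x axis and the strand on the y axis. Filled boxes carry the mean level over 2 libraries in CPM, sense-strand reads scaled to a library total of 1000000 and open boxes were not analysed as genes. The chromosome 8 hairpins sit within 404 bases and the chromosome 13 hairpins within 792. In each cluster the first hairpin had the highest count of those analysed.

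The mir-23 genes gave nearly all reads counted to the 5 analysed genes. Mir24-1, and reads that mapped to several places, are outside these counts. Values are CPM, in which the sense-strand reads of all miRNA genes of a library sum to 1000000, with the mean ± SD over n = 2 libraries. An insert of this size class is read whole, so a mature miRNA gives 1 read whatever the length of its hairpin, and levels are compared as reads per gene. Mir23b stood at 9348 CPM in replicate 1 and 9977 in replicate 2 (9662 ± 445), rank 20 of the 1973 genes. Mir23a stood at 4700 and 5007 CPM (4854 ± 217), rank 40. Both values of Mir23b lay above both values of Mir23a.

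The mir-27 genes were lower and less even. Mir27b stood at 828 CPM in replicate 1 and 770 in replicate 2 (799 ± 40.6), rank 104. Mir27a stood at 64.9 and 63.1 CPM (63.96 ± 1.28), rank 237, on 399 and 335 reads. In both libraries Mir27b was above Mir27a, and each mir-27 gene was below the mir-23 gene of its own cluster.

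The analysed mir-24 gene lay near Mir27a, slightly above it in both libraries. Mir24-2 stood at 69.9 CPM in replicate 1 and 80.2 in replicate 2 (75.0 ± 7.27), rank 226, on 430 and 426 reads. The 95% Wilson intervals of Mir24-2 and Mir27a overlapped in replicate 1 (63.6 to 76.8 and 58.8 to 71.5 CPM) and did not in replicate 2 (72.9 to 88.2 and 56.7 to 70.2 CPM). Such intervals cover counting error only, and reads are not independent molecules. The order from Mir23b through Mir23a, Mir27b and Mir24-2 to Mir27a was the same in both libraries. Each step in that order exceeded the larger SD of the genes it separated, though the last step, from Mir24-2 to Mir27a, was the narrowest.

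**Figure D2:**
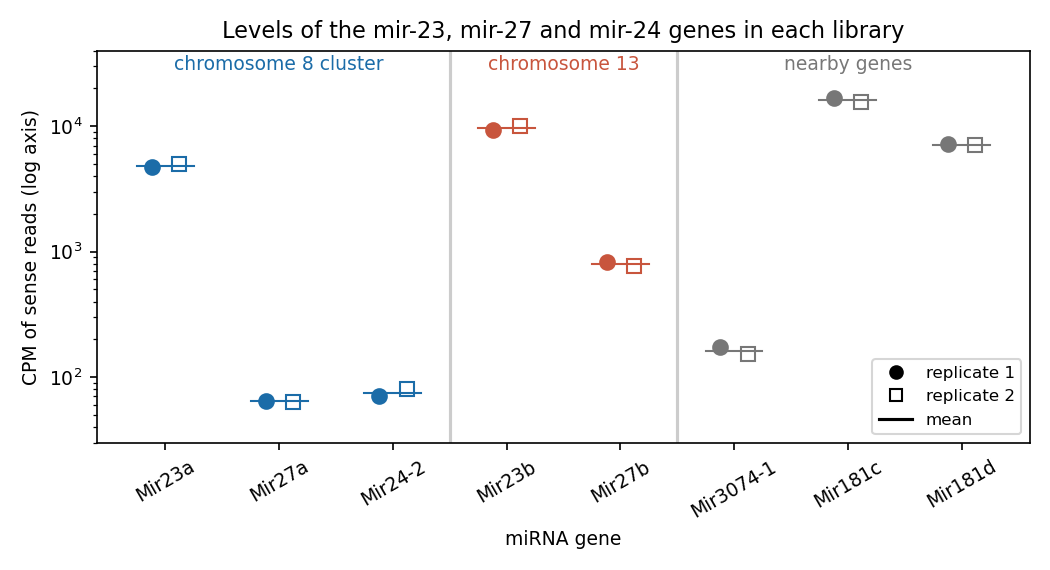
Level in CPM of sense reads on a log axis for the 5 analysed members and 3 nearby genes on the x axis, with replicate 1 as filled circles, replicate 2 as open squares and the mean as a line. Mir23a and Mir23b sit at 4854 and 9662 on average, and Mir27a and Mir24-2 below 100.

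Summed by cluster, the chromosome 13 genes gave more reads, even without Mir24-1. Mir23b and Mir27b together held 10176 CPM in replicate 1 and 10748 in replicate 2 (10462 ± 404), and the 3 chromosome 8 genes 4835 and 5150 CPM (4993 ± 223). All 5 together held 15011 and 15898 CPM (15454 ± 627), or 1.55% of the sense-strand miRNA reads. The mir-23 genes made up 14516 ± 662 of this and the mir-27 genes 863 ± 41.8.

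The balance between paralogs was near-constant across the pools but differed between families. Mir23b made up 66.5% of mir-23 reads in replicate 1 (95% Wilson interval 66.2 to 66.9, of 86415 reads) and 66.6% in replicate 2 (66.3 to 66.9, of 79604). This is a log2 ratio of Mir23b over Mir23a of 0.99 in each library, or 1.99-fold. Mir27b made up 92.7% of mir-27 reads in replicate 1 (92.0 to 93.4, of 5491 reads) and 92.4% in replicate 2 (91.6 to 93.2, of 4428). The log2 ratio of Mir27b over Mir27a was 3.67 and 3.61, or 12.5-fold for the mean of 3.64 ± 0.045. The ratio of the mir-27 paralogs lay above that of the mir-23 paralogs by 2.68 log2 units in replicate 1 and 2.61 in replicate 2, a gap wider than the SD of either. Per base of annotated hairpin the mean log2 ratios were 1.01 for mir-23 and 3.89 for mir-27.

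Within the clusters, neighbours ranged from near-even to far apart. Mir24-2 was 1.08-fold above Mir27a in replicate 1 and 1.27-fold in replicate 2, closer than either set of paralogs. Mir23a was 72.4-fold above Mir27a in replicate 1 and 79.3-fold in replicate 2, across a gap of 79 bases. Mir23a was also 67.2-fold and 62.4-fold above Mir24-2. On chromosome 13, Mir23b was 11.3-fold above Mir27b in replicate 1 and 12.9-fold in replicate 2. Full-length reads of miR-24-3p match 2 hairpins and would be left out of Mir24-2, while those of miR-27a-3p and miR-23a-3p each match 1. The ratios with Mir24-2 therefore compare a count without such reads with counts that can hold them. The part that reads of shared bases have in these ratios was not tested.

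For comparison, 17 gene pairs of the tables are named with the same number and the letters a and b, carry no copy number and had 10 or more reads in both libraries. The b gene was higher in 8 and the a gene in 9, and the median size of the log2 ratio was 1.97, or 3.91-fold. By size, mir-27 ranked 4 of the 17 from the most uneven and mir-23 ranked 12. The pairs were chosen by name alone, and some, such as Mir200a and Mir200b with a gap of 695 bases, lie in 1 cluster. The most uneven was Mir30a over Mir30b at a log2 of 6.22, and the most even Mir148b over Mir148a at 0.13. Next to mir-27 in this order stood Mir20a over Mir20b, of the mir-17 family, at 5.13 and Mir99a over Mir99b at 3.06. Next to mir-23 stood Mir101b over Mir101a at 1.36 and Mir216b over Mir216a at 0.73. The SD between libraries was 0.0021 for mir-23, against 0.045 for mir-27 and up to 0.31 for Mir200a and Mir200b. Each is an SD of 2 values and the pairs differ in read depth, so these SDs do not rank the pairs by stability.

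**Figure D3:**
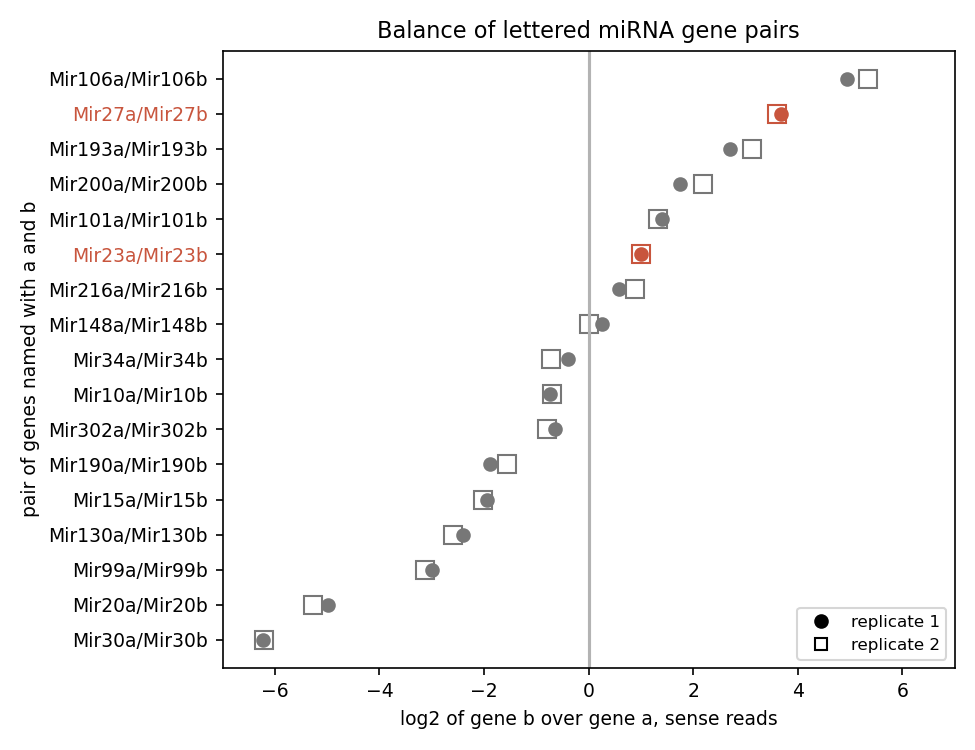
Log2 of the b gene over the a gene in sense reads on the x axis for 17 lettered pairs on the y axis, with replicate 1 as filled circles and replicate 2 as open squares. The pairs Mir23a/Mir23b and Mir27a/Mir27b are in colour, at means of 0.99 and 3.64, and a point right of 0 has the b gene higher.

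The place of Mir24-1 could be seen only through Mir3074-1, which GENCODE M21 puts on its opposite strand. Mir3074-1 (ENSMUSG00000092741.1, chr13:63301199-63301283 in M21, minus strand) covers all 68 bases of Mir24-1. The sense reads counted to Mir3074-1 stood at 172 CPM in replicate 1 and 152 in replicate 2 (162 ± 13.9), which was 2.46-fold and 1.90-fold above Mir24-2. Its identifier has an older version in the tables, and the strand and position used for it there are not given in the sources used here. If the tables used the plus strand for it, these would be reads of the Mir24-1 strand, and which strand they came from cannot be told here. Mir3074-2, opposite Mir24-2, was not analysed here. Reads on the opposite strand of the 5 analysed members came to 1 for Mir27b in replicate 1 and 1 for Mir24-2 in replicate 2.

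Other genes tied to the clusters by position or seed varied widely. Mir181c and Mir181d, of a family known from the brain and lymphocytes, lie on the minus strand in an intron of Nanos3, the former 29556 bases from Mir23a. Mir181c stood at 16694 and 15588 CPM (16141 ± 782) and Mir181d at 7230 and 7063 CPM (7146 ± 118), so both were above Mir23a in both libraries. Gm25110, the other gene within 100 kb, had 0 reads. So had Mir6413, Mir6410, Mir6369 and Mir5124b, whose mature miRNAs have the seed of miR-24-3p. A count of 0 allows up to 3 reads in each library. The mir-128 genes, whose mature strand starts with the mir-27 seed letters, stood at 2182 and 2729 CPM (2456 ± 387) for Mir128-1 and at 1289 and 1507 CPM (1398 ± 155) for Mir128-2. Each mir-128 gene alone was above the 863 ± 41.8 CPM of the mir-27 genes together. These are counts per gene with both arms in 1 count, and reads that match both mir-128 genes would be listed apart. They are therefore not the level of miR-128-3p itself.

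In level, each member had close neighbours of other families, by the difference of log2 mean CPM over 2 libraries. Mir23b stood between Mir369 (9792 ± 1476 CPM, log2 difference 0.02) and Mir30d (8738 ± 876, -0.15). Mir23a stood between Mirlet7b (5137 ± 759, 0.08) and Mir381 (4824 ± 260, -0.0087). Mir27b stood between Mir34c (807 ± 24.9, 0.01) and Mir187 (796 ± 97.7, -0.0063). Mir24-2 stood between Mir702 (79.1 ± 11.3, 0.08) and Mir194-2 (75.0 ± 4.68, -0.0009). Mir27a stood between Mir7689 (64.8 ± 1.07, 0.02) and Mir30c-1 (62.5 ± 6.86, -0.03). Of these 10 gaps, that between Mir23b and Mir30d was larger than the larger SD of its genes, and the other 9 were not.

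Between the libraries, the mir-23 genes were slightly higher in replicate 2 and Mir27b slightly higher in replicate 1. The log2 ratio of replicate 2 over replicate 1 was 0.09 for Mir23a and 0.09 for Mir23b, 1.07-fold each (adjusted p = 5.37e-13 and 2.09e-26, exact binomial test, two-sided, Benjamini-Hochberg adjusted over all tested genes). For Mir27b it was -0.10, or 1.07-fold (adjusted p = 0.0017, exact binomial test). Mir24-2, at 0.20, and Mir27a, at -0.04, did not pass (adjusted p = 0.091 and 0.83, exact binomial test). So 3 of the 5 members passed, while the test called 47.4% of all 411 genes with 10 or more reads in both libraries. By direction it called 29.2% as higher in replicate 1 (120 genes) and 18.2% as higher in replicate 2 (75 genes), which TMM scaling turned to 23.1% (95 genes) and 21.9% (90 genes). The members' median log2 ratio was 0.09, against -0.06 over all 411 genes, whose median size was 0.18.

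This test compares 2 libraries and covers counting error only. It called 81 of 91 genes at 1000 CPM or more and 16 of 39 genes between 50 and 100 CPM. With an allowance for spread between pools in edgeR's exact test, at a biological coefficient of variation of 0.1, 0 of the 5 members passed, 0 had an unadjusted p under 0.05, and the test called 2.19% of genes. At 0.2, 0 members passed and 1.46% of genes were called. TMM scaling moved all log2 ratios up by 0.05, and 3 members passed against 45.0% of genes. Mir27b then stood at -0.06 and did not pass (adjusted p = 0.13, exact binomial test), Mir24-2 stood at 0.25 and passed (adjusted p = 0.031, exact binomial test), and Mir27a turned to 0.0079.

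**Figure D4:**
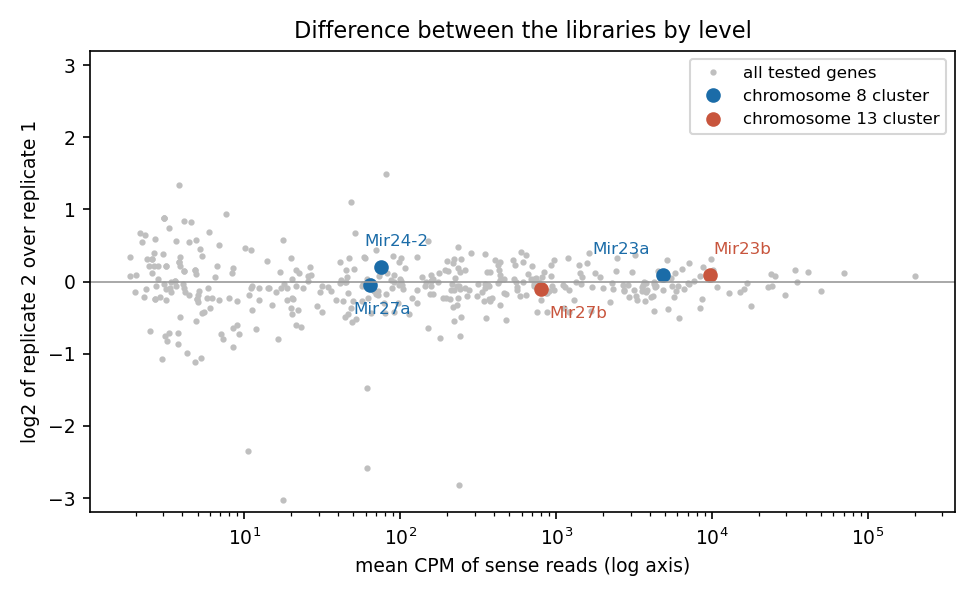
Log2 of replicate 2 over replicate 1 on the y axis against mean CPM of sense reads on a log x axis, for the 411 tested genes in grey and the 5 analysed members in colour. The members lie between -0.10 and 0.20, while the tested genes range from -3.03 to 1.50.

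The libraries held 6151299 and 5312642 sense-strand miRNA reads, of 13638577 and 12027645 reads in all. Marker miRNAs of the brain were present, with 8 of 9 listed genes at 10 or more reads in both libraries and 50719 and 50767 CPM in sum. Mir149 led the list with 24868 and 26129 CPM of this sum. Levels within the list were uneven, and Mir124a-1 stood at 5.04 CPM on average. Reads that match several gene copies would be listed apart from these counts. Markers of other cells were present too. Mir126a of endothelium stood at 23067 and 24810 CPM, the 4 mural and mesenchyme genes at 10880 and 10422 CPM in sum, the 3 oligodendrocyte genes at 1524 and 1700, and the 4 analysed blood genes at 410 and 487. The 6 epithelial genes summed to 1290 CPM in replicate 1 and 662 in replicate 2. Mir203 held 627 and 546 CPM of these sums, so the other epithelial genes together were much lower in replicate 2. Of muscle, Mir206 stood at 18.2 and 17.7 CPM, and Mir1a-1, Mir133a-1 and Mir133a-2 were at 0 reads. Which of these cells gave the mir-23, mir-27 and mir-24 reads was not tested, and in bulk tissue fewer cells of a type and less RNA per cell cannot be told apart.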

How the data were processed

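MicroRNA-seq of 2 libraries of 1 group (midbrain, embryonic day 16.5) was used. The deposited values are raw counts of reads per miRNA gene on mm10 with GENCODE M4, per the deposited file descriptions. The aligner, counter and trimming are not given in the sources used here. Sense-strand counts were used. Library sizes left out the rows without a gene, which held reads that mapped to several places (35.3% and 36.5% of all reads in replicates 1 and 2), unmapped reads (15.6% and 15.2%) and reads in no gene (3.99% and 4.14%). By identifier without its version, 1894 of 1973 genes matched GENCODE M21, of which 79 carried another version there.

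CPM used the summed sense counts. Log2 ratios had 0.5 reads added to each count. The design left no residual degree of freedom, so edgeR's quasi-likelihood test could not be fitted. Genes with 10 or more reads in both libraries were compared by exact binomial tests, two-sided, at a Benjamini-Hochberg adjusted p of 0.05. The test was tested on simulated data. Those data held counting error and no spread between pools. P-values measure the difference between these 2 pools alone. TMM factors (1.02 and 0.983), RLE factors and exact tests at a fixed coefficient of variation came from edgeR 4.0.16 in R 4.3.3. Python 3.11.15, scipy 1.17.1, statsmodels 0.14.6 and matplotlib 3.10.9 served for the rest.

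The members, lists and tests were chosen with earlier results of these data known. Named genes were the members, genes within 100 kb, genes with a shared seed, the mir-128 genes, the next genes in level, marker genes, and the extreme and adjoining lettered pairs.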

Additional observations from a re-analysis of the deposited data

Results flagged for a closer look

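Reads on the strand opposite Mir3074-1 numbered 89 in replicate 1 and 59 in replicate 2, in a count column that no comparison above used, and lay above the 3 reads that a count of 0 allows. They made up 7.75% (95% Wilson interval 6.34 to 9.44) and 6.79% (5.30 to 8.66) of the reads counted to that gene on either strand. Scaled to the sense reads of each library they came to 14.5 and 11.1 CPM (12.8 ± 2.38, SD, n = 2), below the level of Mir24-2. In GENCODE M21 the gene opposite Mir3074-1 is Mir24-1. The strand that the tables used for Mir3074-1 is not given in the sources used here, so whether these reads, or the sense reads of Mir3074-1, came from the Mir24-1 strand cannot be told.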

How the results depend on the processing

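The 5 members summed to 6896 CPM over all reads of the library and to 19371 CPM with the most abundant gene left out of the denominator, against 15454. Over all reads the chromosome 8 cluster stood at 2228 CPM and the chromosome 13 cluster at 4668. Levels moved by the new denominator itself, and each cluster kept its place in the order. Per hairpin base, the log2 ratio was 1.01 for Mir23b over Mir23a and 3.89 for Mir27b over Mir27a. With either-strand counts the paralog ratios, the shares and the cluster totals moved by less than 1 SD. Leaving out replicate 1 or replicate 2 leaves the value of the other library, given above, and with 2 libraries is no check of stability. In edgeR's exact test 0 members and 9 genes passed at a coefficient of variation of 0.1, and 0 members and 6 genes at 0.2, against 3 members and 195 genes by the binomial test. At 0.1 and 0.2, 40 and 8 genes had an unadjusted p under 0.05, with 0 members among them. The log2 ratio of Mir27a between libraries, -0.04, turned to 0.0079 with TMM factors and 0.0080 with RLE factors. Of 25 alternatives for single members, 13 kept the direction and the side of the threshold, 8 lost the call, 2 gained it (Mir24-2 with TMM and with RLE) and 2 were these turns of Mir27a. With 100 reads as the minimum, 15 lettered pairs had a median size of 1.72. The difference between libraries could not be fitted without a replicate. Depth limits Mir27a and Mir24-2, at 335 to 430 reads.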

Other observations

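Uneven counts of neighbouring hairpins were seen in other clusters too, in a description chosen after the values were seen. Among 65 pairs of adjacent analysed hairpins on the same strand, with a gap of at most 1 kb and 10 or more reads in both libraries for each gene, the median size of the log2 ratio was 2.86. Mir23a and Mir27a, at 6.24, ranked 10 of the 65, and Mir23b and Mir27b, at 3.60, ranked 24. Mir27a and Mir24-2, at 0.23, ranked 61. With gaps of up to 10 kb there were 114 pairs with a median of 2.80, and Mir23a and Mir27a ranked 17. With at least 100 reads there were 52 pairs with a median of 2.69, and they ranked 6. The most uneven pairs were Mir20a and Mir19b-1 of the mir-17-92 cluster at 9.50, and Mir181a-1 and Mir181b-1 at 9.25. Mir487b and Mir539 followed at 8.89, then Mir99a and Mirlet7c-1 at 8.88. Of the lower genes of these pairs, Mir19b-1, Mir181b-1 and Mirlet7c-1 carry a copy number in the name, and Mir539 does not. Reads that match several copies would be listed apart from the genes, and their part in these ratios was not tested. Pairs of 1 cluster share a gene and are not independent.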
